A study of Mus musculus with 15 samples.

Results

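The 8 genes described here mark the proximal, basal and ciliated epithelium of the airways: Sox2, Sox21, Trp63, Krt5, Krt14, Krt15, Ngfr and Foxj1. They were taken by symbol from tables of 23420 genes, and all 8 had a row in both the table of cultured lungs and the table of freshly isolated lungs. The libraries were made from whole embryonic lungs of the outbred CD1 mouse strain, wildtype in genotype. Lungs explanted at E12.5 (the number gives the day of gestation) were cultured for 48 h at high or at low transmural pressure, which is the pressure inside the airway relative to that outside the lung. Other lungs were taken straight from embryos at stages E12.5, E13.5 or E14.5. Each of these 5 groups has 3 libraries. Each RNA pool held 3 lungs at high pressure, E13.5 and E14.5 and 6 lungs at low pressure and E12.5, so that pool size moved with pressure and with the E12.5 stage. The labels do not say how much trachea or neighbouring tissue the lungs carried, nor whether replicate pools were taken from different litters or culture runs. The p-values below therefore cover the spread between pools and no more, and that spread may be technical.

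The conducting airways of the mouse arise from the proximal part of the branching lung epithelium, which is marked by the transcription factor SOX2 and its relative SOX21, while the growing tips lack them. Basal cells, the stem cells of the pseudostratified airway lining, depend on p63, the product of Trp63, and are recognised by the keratins KRT5, KRT14 and KRT15 and by NGFR, a neurotrophin receptor on their surface that is also found on neural crest derivatives. FOXJ1 is the transcription factor that switches on the genes of motile cilia in multiciliated cells, and it acts downstream of regulators such as MCIDAS. In embryos of these stages p63 is found mainly in the trachea and main bronchi, and multiciliated cells have hardly begun to form.

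Total counts were 40167255 to 44341263 at high pressure, 31843739 to 38288861 at low pressure and 18837343 to 21955244 in fresh lungs. Low pressure replicate 3 had counts for 14637 genes, against 16509 to 16726 in the other 5 cultured libraries, and 330 genes with 1 to 10 counts, against 1632 to 2101. Several scarce genes that were called are therefore also given without that library. High pressure replicate 3 stood apart from the other high pressure libraries in some of the keratins and some of the ciliated cell genes described below. Ribosomal protein genes took 2.92% to 3.20% of the counts at high and 1.86% to 2.10% at low pressure, and 3.41% to 4.13% in replicate 1 of the 3 stages, against 1.69% to 2.15% in replicates 2 and 3.

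KRT5 is a textbook target of p63, and its promoter is shown because Krt5 and Trp63 were both lower in most high pressure libraries. The RefSeq window of 300 bases, which runs from 250 bases before to 50 bases after the start site, lies at chr15:101712856-101713155 on the minus strand of GRCm38.p6. Capitals mark the single match to the p53 family half-site, the decamer bound by p53, p63 and p73.

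Krt5: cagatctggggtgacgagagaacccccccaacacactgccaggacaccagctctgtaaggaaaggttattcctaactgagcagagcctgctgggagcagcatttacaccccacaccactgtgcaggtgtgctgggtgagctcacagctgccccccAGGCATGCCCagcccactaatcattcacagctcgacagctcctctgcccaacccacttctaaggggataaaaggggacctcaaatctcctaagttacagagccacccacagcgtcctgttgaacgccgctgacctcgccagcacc

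The match begins 95 bases before the start site. The pattern of the half-site reads the same on both strands, though the letters marked here do not. It occurs in 8.36% of 32544 RefSeq promoter windows of this length. The windows of Sox21 and Ngfr held no match, and neither did that of Sox2. The Krt14 window held none either, but it lies inside the Krt14 gene of the annotation used for the counts below and may not be the start used in these cells. Promoters of 5 of the 8 genes were in the table, those of Trp63, Krt15 and Foxj1 being missing from it. The Krt5 window was also searched for TATAAA, for ACAAAG, a core of SOX sites, and for TGANTCA, a core of AP-1 sites, on both strands, and held none of them; these letters occur in 13.6%, 18.7% and 7.79% of all windows. A match or its absence is a property of these letters alone.

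High pressure lungs had less of the basal cell genes Trp63 and Krt14 and more of the ciliated cell gene Foxj1 than low pressure lungs, while Sox2, Sox21 and Ngfr were not called. Trp63 was 4.01-fold lower and Foxj1 6.22-fold higher at high pressure. Levels are given as CPM, read counts relative to the library size, scaled by the TMM method of edgeR within each table, and fold changes were tested with the quasi-likelihood test of edgeR, with adjusted p-values under 0.05 over all genes counted as called. Of the 8 genes, all of which passed the filter on low counts, 1 was called higher and 2 lower, 3 in all, against 26.1% of the 14937 genes tested, 14.0% higher and 12.2% lower. Their median log2 fold change was -0.58, against 0.01 for all genes tested. The 3 called genes were also those whose groups did not overlap, which held for 46.8% of all genes tested. A share of this size is near the background of the comparison.

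**Figure D1:**
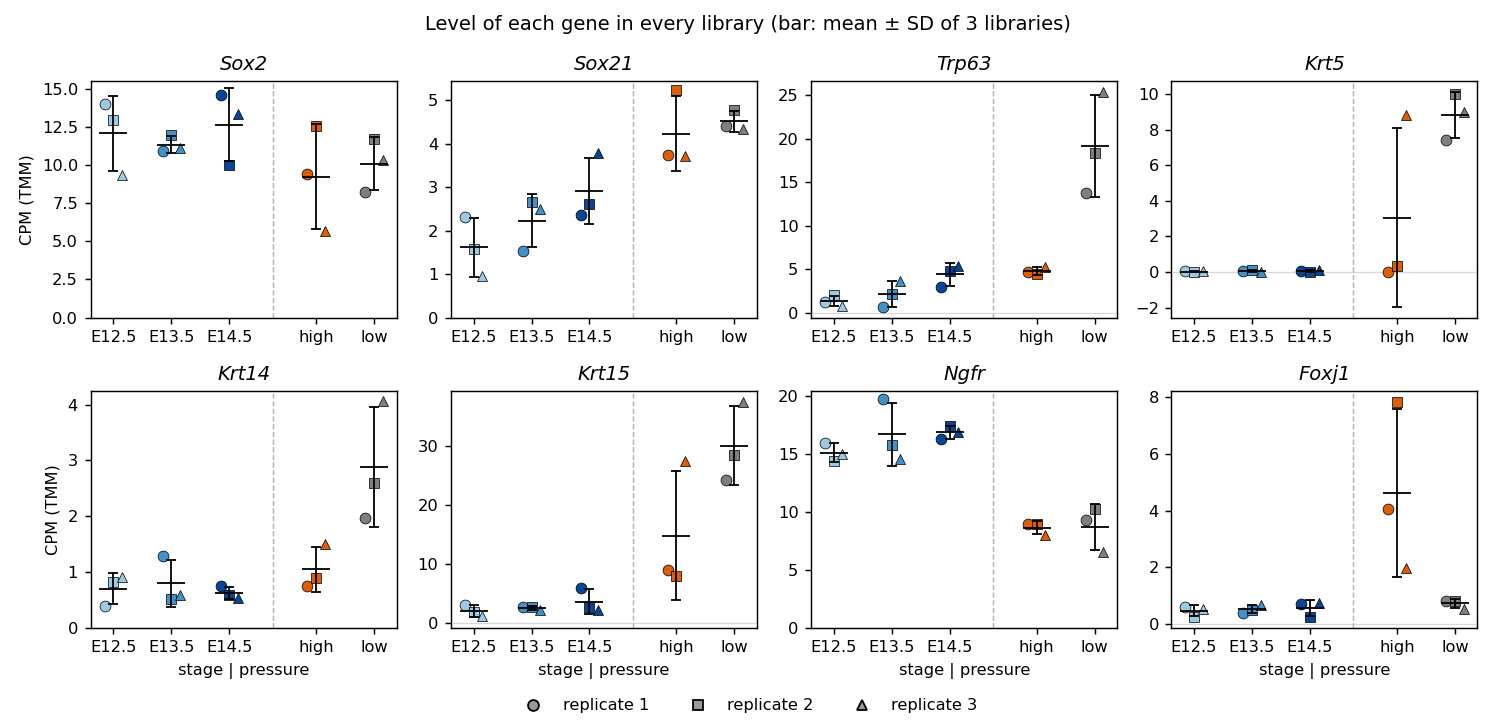
Level of the 8 genes in every library, in CPM on a linear axis, with the mean and SD of 3 libraries per group; a dashed line parts the 3 stages of fresh lungs from the cultured lungs, and the marker shape gives the replicate number. Trp63 stood at 4.39 to 5.25 CPM at high and 13.8 to 25.4 CPM at low pressure, and Krt5 in high pressure replicate 3 reached 8.84 CPM.

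**Figure D2:**
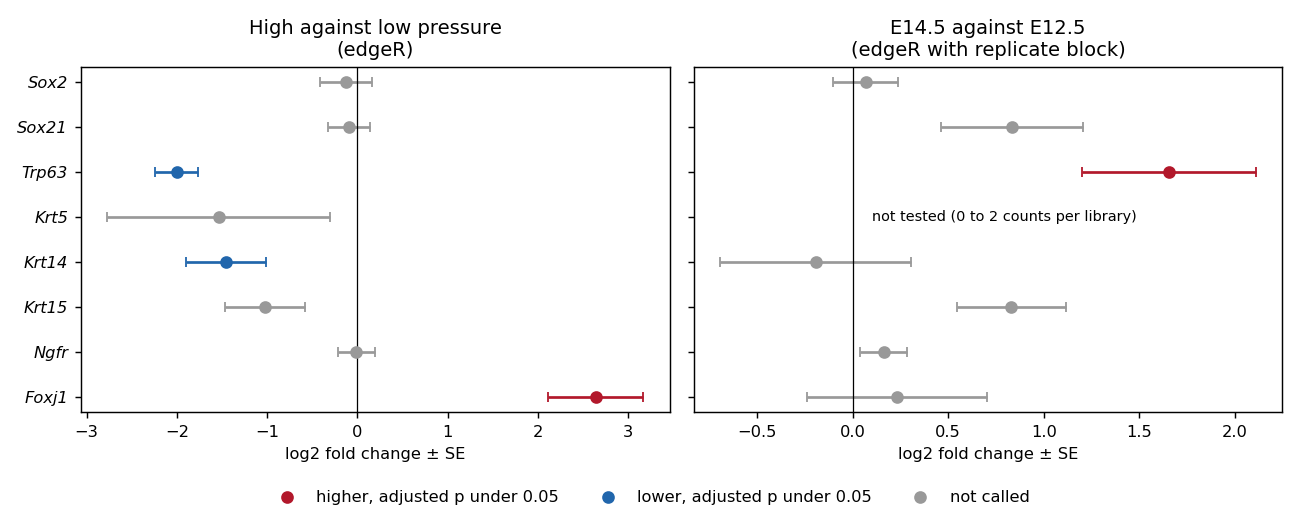
Log2 fold change with SE of the 8 genes for high against low pressure (left) and for E14.5 against E12.5 with the replicate number as a block (right); colour marks an adjusted p under 0.05. Trp63 was called in both, with -2.003 on the left and 1.66 on the right, while Krt5 was not tested in fresh lungs.

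Trp63, which encodes the transcription factor p63 that basal cells require (chromosome 16, 25683763 to 25892102, plus strand, mm10), had 4.70, 4.39 and 5.25 CPM in the 3 high pressure libraries, against 13.8, 18.3 and 25.4 CPM in the 3 low pressure libraries. Every high pressure library lay below every low pressure library. The counts behind these levels were 193 to 209 at high and 443 to 795 at low pressure. The log2 fold change was -2.003 (SE 0.24, edgeR adjusted p = 0.00119). All 11 other ways of fitting kept the call, with log2 fold changes from -2.19 to -1.75. The gene has 8 annotated transcripts, and counts per gene do not separate the isoforms of p63 with and without the transactivation domain. In whole lungs, fewer cells of a type and less RNA per cell cannot be told apart, here and below.

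The keratins of basal cells had lower means at high pressure, but replicate 3 had the most of each among the high pressure libraries. Krt14, which pairs with keratin 5 in the filaments of basal cells (chromosome 11, 100203162 to 100207548, minus strand), had 0.744, 0.887 and 1.51 CPM at high and 1.96, 2.60 and 4.06 CPM at low pressure. The groups did not overlap, and the log2 fold change was -1.46 (SE 0.45, edgeR adjusted p = 0.0437). This rests on 32 to 60 counts at high and 63 to 127 counts at low pressure, and on reads that close paralogs such as Krt16 and Krt17 may share. The adjusted p from edgeR passed the threshold by little: it was 0.128 without high pressure replicate 1, 0.142 without replicate 2, 0.0563 without replicate 3 and 0.0874 without low pressure replicate 2, with log2 fold changes from -1.82 to -1.13 over all alternatives. Without low pressure replicate 3 the log2 fold change was -1.13 (edgeR adjusted p = 0.0480).

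Krt15, a keratin of basal cells that is made from early stages of stratified and airway epithelium (chromosome 11, 100131758 to 100135928, minus strand), had 8.95, 7.91 and 27.4 CPM at high pressure, against 24.2, 28.4 and 37.4 CPM at low pressure. High pressure replicates 1 and 2 lay below all low pressure libraries, and replicate 3 lay among them. The log2 fold change of -1.03 did not pass (SE 0.44, edgeR adjusted p = 0.120). Without high pressure replicate 3 it was -1.84, with an edgeR adjusted p of 0.00790.

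Krt5, the type II keratin that defines mature basal cells (chromosome 15, 101707070 to 101712898, minus strand), had 0, 0.341 and 8.84 CPM at high pressure, against 7.43, 10.02 and 9.01 CPM at low pressure. As counts these were 0, 15 and 352 at high and 239, 385 and 282 at low pressure. A count of 0 in high pressure replicate 1 allows up to 0.0698 CPM (3 counts), as far as counting error goes. A pair of high pressure libraries thus held almost no Krt5, and the third held as much as the low pressure libraries. The log2 fold change was -1.53 (SE 1.23) and did not pass (edgeR adjusted p = 0.392), and without high pressure replicate 3 it was -5.66 (edgeR adjusted p = 0.0120). Reads of a microRNA gene on the opposite strand that shares 129 exon bases with Krt5 cannot be told apart from its own, since the strand setting of the counting is not given in the sources used here.

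High pressure replicate 3 was examined further after these values were seen. Of 13370 genes that averaged 1 CPM or more at high pressure, only 5 stood at least 3-fold above both other high pressure libraries in replicate 3, with 0.1 CPM added to each value. Krt5 ranked first among all 13370, at 20.3-fold over the higher of the other libraries. Krt4, a keratin of the suprabasal oesophagus, ranked 3rd with 5.65 CPM in replicate 3 and at most 1.25 CPM in the other high pressure libraries, Krt15 ranked 5th and Krt14 46th. Trp63 did not share this pattern, since its 5.25 CPM in replicate 3 was 1.12-fold the higher of the others. At the other end, 4 genes stood at least 3-fold below both others in replicate 3. The axonemal dynein heavy chain gene Dnahc5 ranked first there, with 1.30, 2.09 and 0.0251 CPM, and Foxj1 ranked 50th. Replicate 3 was thus the high pressure library with the most Krt5, Krt15, Krt14 and Krt4 and the least Foxj1. Other keratins and ciliated cell genes did not all follow. In the same order of libraries Krt8 had 116, 130 and 115 CPM, and Mcin, a multiciliated cell regulator, had 1.21, 0.591 and 0.653 CPM.

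**Figure D3:**
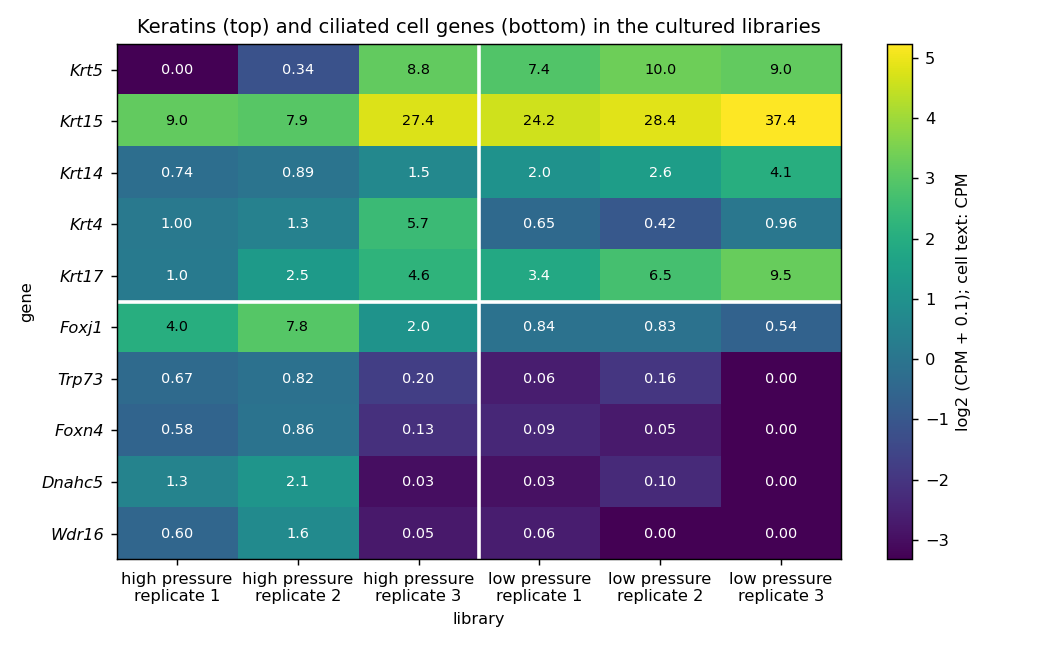
Level of 5 keratin genes (upper rows) and 5 genes of multiciliated cells (lower rows) in the 6 cultured libraries, coloured by log2 of CPM plus 0.1, with the CPM written in each cell. In high pressure replicate 3, Krt5 (8.84 CPM) and Krt4 (5.65 CPM) were above and Foxj1 (1.98 CPM) and Dnahc5 (0.0251 CPM) below both other high pressure libraries.

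Most other genes of basal and stratified epithelium were not called between the pressures. Of 22 such genes, 20 were tested, 3 were called higher and 1 lower at high pressure, against 14.0% and 12.2% of all genes tested. The log2 fold change was positive for 9 of the 20, with a median of -0.12. The higher genes were Lamb3 (1.45), a chain of the basement membrane laminin that basal cells anchor to, Pdpn (0.995) and the Notch ligand gene Jag2 (0.38). Pdpn is also made by type I alveolar cells and by mesothelium, the outer lining of the lung. Of 8 mesothelial markers, all tested with edgeR, 4 were higher at high pressure and 0 lower, with Msln at 3.91. Their summed level was 461 to 602 CPM at high and 337 to 354 CPM at low pressure. Krt19, which is also made by other epithelia, was among the 4. It took 147, 142 and 153 CPM of the sum at high and 69.1, 64.3 and 61.2 CPM at low pressure. The lower gene was Snai2 (-1.33), a transcription factor of basal cells that mesenchyme also makes. Krt17, a keratin of activated basal cells, had 1.05, 2.46 and 4.60 CPM at high and 3.45, 6.45 and 9.46 CPM at low pressure and was not called. Without high pressure replicate 3, 2 genes of the basal list were higher and 1 was lower, against 7.02% and 6.22% of all genes tested.

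Whole lungs could carry other epithelia that make the same keratins, and some of their markers were lower at high pressure too. Of 12 genes of the oesophagus, pharyngeal pouches and thymus, 7 were tested with edgeR, 0 were higher and 3 were lower at high pressure. Among all genes tested, 14.0% were higher and 12.2% lower. The median log2 fold change of the 7 was -0.93. The lower genes were Pax9 (-2.29) and Pax1 (-3.65), transcription factors of the pharyngeal pouches, and Krt10 (-1.27), a keratin of differentiating stratified epithelium. Without low pressure replicate 3 the log2 fold changes were -2.70 for Pax9, -3.82 for Pax1 and -1.26 for Krt10, all called by edgeR. Without high pressure replicate 3, Pax9 (edgeR adjusted p = 0.0462) and Pax1 (edgeR adjusted p = 0.0188) were called. Krt10 was not (-1.24, edgeR adjusted p = 0.0878). With the replicate block, 1 of the 7 genes was lower. Pax1 had 0, 0.0227 and 0.301 CPM at high and 1.77, 1.27 and 1.05 CPM at low pressure. The groups overlapped for Pax9, which had 0.326, 0.978 and 1.88 CPM at high and 7.37, 6.40 and 1.79 CPM at low pressure. The log2 fold change was positive for 2 of the 7 tested genes, among them the oesophageal keratin gene Krt4. Krt4 stood at 0.416 to 0.958 CPM at low pressure, below every high pressure library. Its log2 fold change of 1.96 was not called (edgeR adjusted p = 0.0820). Without high pressure replicate 3 it was 0.73 (edgeR adjusted p = 0.521). The summed level of the list was 17.1 to 21.5 CPM at high and 24.1 to 31.9 CPM at low pressure. The thymic regulator Foxn1 and the epidermal genes Lor and Krt1 were at 0 in all high pressure libraries and at 0 to 0.373 CPM in the low pressure libraries. The part of these tissues in the levels of Trp63 and the keratins was not tested.

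Foxj1, the regulator of motile cilia (chromosome 11, 116330704 to 116335399, minus strand), had 4.05, 7.82 and 1.98 CPM at high pressure, against 0.839, 0.833 and 0.543 CPM at low pressure. Every high pressure library lay above every low pressure library, and the high pressure libraries differed among themselves by more than the low ones did. The counts were 174, 344 and 79 at high and 27, 32 and 17 at low pressure. The log2 fold change was 2.64 (SE 0.52, edgeR adjusted p = 0.00836), and it was called in all 11 alternatives, with log2 fold changes from 2.03 to 3.00 and 2.46 without low pressure replicate 3.

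Regulators that act with Foxj1 in multiciliated cells were partly higher as well. Of 12 listed, 11 had a row, 9 were tested, 3 were higher and 1 was lower at high pressure, with a median log2 fold change of 0.54. Among all genes tested, 14.0% were higher and 12.2% lower. Mcin (now Mcidas), which starts the multiciliated programme, had 1.21, 0.591 and 0.653 CPM at high and 0.124, 0.104 and 0 CPM at low pressure (3.35). Ccdc67 (now Deup1), a component of the bodies that multiply centrioles, had 1.05, 2.001 and 0.553 CPM at high and 0.155, 0.0520 and 0 CPM at low pressure (4.06). The cell cycle factor gene E2f4 was higher by 0.43, and Rfx3, a transcription factor of ciliary genes that is made in many ciliated cell types, was lower (-0.42). Trp73, whose product p73 is a relative of p63 that multiciliated cells need, had 0.674, 0.819 and 0.201 CPM at high and 0.0622, 0.156 and 0 CPM at low pressure and was left untested by the filter. Foxn4, a regulator of multiciliated cells in Xenopus, had 0.581, 0.864 and 0.126 CPM at high and 0.0932, 0.0520 and 0 CPM at low pressure and was left untested too.

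Most genes of the ciliary axoneme itself were not called. Of 26 such genes, 18 were tested, 2 were higher and 0 were lower by edgeR, against 14.0% and 12.2% of all genes tested. Their median log2 fold change was 0.46. The higher genes were the dynein gene Dnaic2 (3.92) and the broadly used tubulin gene Tubb4b (0.46). Dnaic2 had 0.674, 2.96 and 0.980 CPM at high and 0.218, 0.0781 and 0 CPM at low pressure. Without low pressure replicate 3, the library with few low counts, Mcin (2.81), Ccdc67 (3.54) and Dnaic2 (3.39) were still called higher. The counts of both lists moved with single libraries, as did those of all genes. Without low pressure replicate 3, 7 of 10 regulators tested were higher and 2 lower, and 8 of 24 axoneme genes tested were higher and 2 lower, when 22.1% of all genes were higher and 18.9% lower. Without high pressure replicate 3, 1 of 10 regulators and 3 of 23 axoneme genes were higher and 0 were lower by edgeR, when 7.02% of all genes were higher and 6.22% lower. Among the genes called with all libraries, Mcin (3.48, adjusted p = 0.104) and Dnaic2 (4.16, adjusted p = 0.0679) then missed the threshold of edgeR. E2f4 (0.49, edgeR adjusted p = 0.0668) and Rfx3 (-0.44, edgeR adjusted p = 0.0563) missed it too. Ccdc67 (edgeR adjusted p = 0.0498) and Tubb4b (edgeR adjusted p = 0.0178) passed it. Dnahc5, left untested with all libraries, was then called higher (5.07, edgeR adjusted p = 0.0290).

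**Figure D4:**
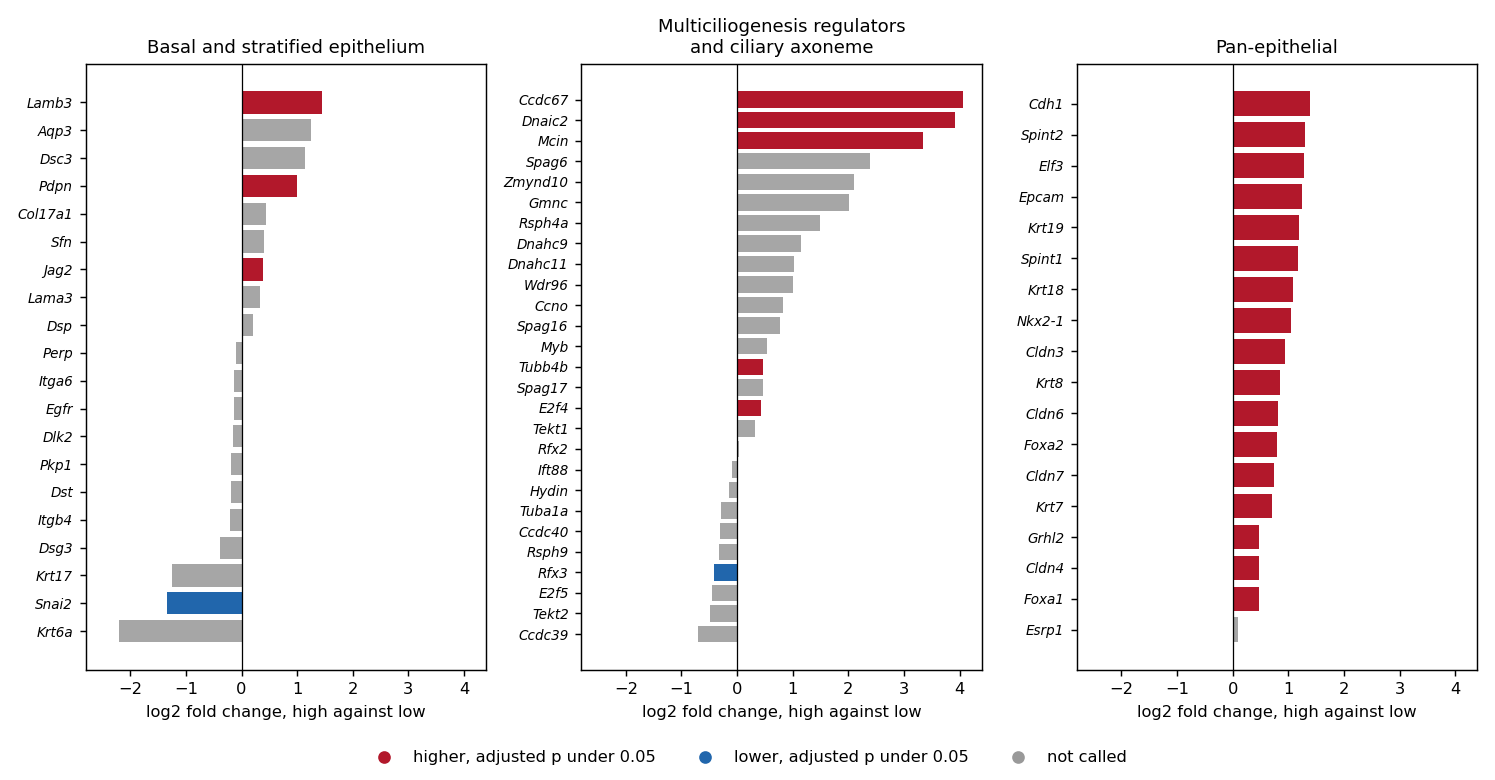
Log2 fold change, high against low pressure, of the tested genes of 3 lists, with red and blue bars for genes called higher and lower by edgeR. In the basal list (left) 3 genes were higher and 1 lower, among the 27 regulators and axoneme genes (middle) 5 were higher and 1 lower, and in the pan-epithelial list (right) 17 of 18 were higher.

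Sox2, the transcription factor of proximal airway epithelium (chromosome 3, 34650405 to 34652461, plus strand), had 9.44, 12.6 and 5.70 CPM at high and 8.24, 11.7 and 10.3 CPM at low pressure. The groups overlapped, and the log2 fold change of -0.13 (edgeR adjusted p = 0.778) had an interval of -0.68 to 0.43 (1.96 SE to either side). The non-coding gene Sox2ot, in which Sox2 lies, shares no exon base with it. Sox21, a SOX2 relative of the same domain (chromosome 14, 118233232 to 118237030, minus strand), had 3.74, 5.23 and 3.72 CPM at high and 4.41, 4.79 and 4.34 CPM at low pressure. Its groups overlapped too, with a log2 fold change of -0.09 (edgeR adjusted p = 0.804, interval -0.56 to 0.37). A non-coding gene on the opposite strand shares 713 exon bases with Sox21. The other genes of these families in the tables, Sox1, Sox3 and Sox14, stood at no more than 0.442 CPM in any cultured library and were not tested, and Trp53 was not called (0.26).

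Ngfr, the neurotrophin receptor that marks basal cells in the adult airway (chromosome 11, 95568818 to 95587735, minus strand), had 8.93, 8.91 and 7.96 CPM at high and 9.29, 10.3 and 6.48 CPM at low pressure. It did not follow Trp63 or the keratins: its log2 fold change was -0.01 (edgeR adjusted p = 0.969, interval -0.42 to 0.39). Of the 10 neurotrophin genes and receptors related to it, all tested, 2 were higher and 2 were lower at high pressure. Among all genes tested, 14.0% were higher and 12.2% lower. Ntrk2, the receptor of BDNF, had 6.56, 8.75 and 12.2 CPM at high and 26.9, 26.7 and 32.4 CPM at low pressure (-1.65), and Ntrk3, the receptor of neurotrophin 3, had 4.70, 4.91 and 5.95 CPM at high and 15.2, 17.5 and 25.5 CPM at low pressure (-1.90). The higher genes were Sort1 (0.50), a co-receptor of Ngfr that sorts proneurotrophins, and Maged1 (0.57), an intracellular partner of Ngfr. Ngfr is also made by neural crest derivatives. Against the same shares of all genes, 2 of 12 tested markers of neural crest, neurons and glia were higher, Prph (2.03) and Erbb3 (0.64), and 0 were lower. Their summed level was 158 to 181 CPM at high and 110 to 130 CPM at low pressure. The part of these cells in the level of Ngfr was not tested.

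Genes of a pan-epithelial list took a larger share of the counts at high pressure. The list holds genes such as Nkx2-1 that not every epithelium makes, and Krt19 is also among the mesothelial markers. Of 18 pan-epithelial genes, 17 were higher and 0 were lower, against 14.0% and 12.2% of all genes tested. The summed level of the 18 was 2444 to 2554 CPM at high and 1191 to 1348 CPM at low pressure. Set against the mean log2 level of these genes, Trp63 was lower at high pressure by a log2 difference of -2.85, Krt14 by -2.31 and Krt15 by -2.14. Krt5 averaged -7.59 ± 3.73 at high and -2.74 ± 0.298 at low pressure (log2 ratio, SD, n = 3), with replicate 3 at -3.61 and the other high pressure libraries at -11.01, from a count of 0, and -8.15. Sox2 (-1.08), Sox21 (-1.01) and Ngfr (-0.89) were lower as well on this scale, and Foxj1 was still higher (1.48). None of the 8 genes overlapped between the groups on this scale. This holds for 74.5% of all genes tested, and 72.4% were lower without overlap, so the count of the 8 genes is near the background here too.

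In freshly isolated lungs Trp63 had the largest fold change of the 7 genes tested between E14.5 and E12.5, and it was called only in the fits with the replicate block or without replicate 1 of every stage. edgeR called 0 of the 7 genes tested in each comparison of stages, as it called 0% of all 14242 genes tested. At an unadjusted p under 0.05 it called 1 of the 7 between E14.5 and E12.5, namely Trp63, and 0 in the other comparisons, and DESeq2 called 0 of the 7 in any. Over all genes, an unadjusted p under 0.05 was reached by 1328 genes for E14.5 against E12.5, 977 for E14.5 against E13.5 and 123 for E13.5 against E12.5, and DESeq2 called 491, 293 and 0. In the time series the replicate 1 libraries of the 3 stages deviated together. Replicates 2 and 3 deviated the other way. This follows where replicate 1 is far off, since deviations were taken from the group mean, and is no separate observation. Among replicates 2 and 3, pairs with the same number correlated no more than pairs across numbers. Each comparison was also fitted with the number as a block, which sets replicate 1 apart but pairs replicates 2 and 3 arbitrarily. With the block, 11.0% of all genes were called for E14.5 against E12.5, 7.33% as higher and 3.63% as lower, and 1 of the 7 genes. The block called 6.01% of all genes for E14.5 against E13.5 and 0.00702% for E13.5 against E12.5, and 0 of the 7 genes in either. None of the 7 was without overlap in these comparisons, against 12.0% of all genes for E14.5 against E13.5 and 3.10% for E13.5 against E12.5.

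Trp63 had 1.25, 1.99 and 0.752 CPM at E12.5, 0.664, 2.14 and 3.66 CPM at E13.5 and 2.90, 4.83 and 5.40 CPM at E14.5. The E14.5 libraries lay above all E12.5 libraries, and those of E13.5 overlapped both. E14.5 exceeded E12.5 in all 3 pairs of the same number, by 1.15, 1.24 and 2.69 on the log2 scale. Without overlap any pairing gives this direction, and the numbers do not pair replicates 2 and 3. The log2 fold change was 1.71 without the block (SE 0.60, edgeR adjusted p = 0.367) and 1.66 with it (SE 0.45, edgeR adjusted p = 0.0479). Without replicate 1 of every stage, which stood apart in its ribosomal protein share, it was 1.88 (edgeR adjusted p = 0.0301). The counts behind these levels were 13 to 100 per library.

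Sox21 had 2.31, 1.58 and 0.952 CPM at E12.5, 1.53, 2.66 and 2.49 CPM at E13.5 and 2.35, 2.62 and 3.78 CPM at E14.5. The E14.5 and E12.5 libraries did not overlap, though by a narrow gap, and the log2 fold change of 0.85 was not called (edgeR adjusted p = 0.565, and 0.168 with the block). Without replicate 1 of every stage it was 1.32 (edgeR adjusted p = 0.0438). Sox2 had 14.0, 13.0 and 9.32 CPM at E12.5, 10.9, 11.9 and 11.1 CPM at E13.5 and 14.6, 9.97 and 13.3 CPM at E14.5, with overlap throughout. Its log2 fold change between E14.5 and E12.5 was 0.06, with an interval of -0.36 to 0.49. Unlike Trp63, the proximal marker Sox2 was thus not called in any comparison.

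The keratins were scarce in fresh lungs. Krt5 had 0 to 2 counts in each of the 9 libraries and was left untested. Krt14 stood at 0.385 to 1.28 CPM over all stages, with a log2 fold change of -0.17 between E14.5 and E12.5. Krt15 had 3.03, 1.81 and 1.103 CPM at E12.5, 2.66, 2.66 and 2.15 CPM at E13.5 and 5.95, 2.62 and 2.16 CPM at E14.5. It was higher at E14.5 than at E12.5 in all 3 numbered pairs, though the numbers do not pair replicates 2 and 3. Its log2 fold change was not called with the block (0.83, edgeR adjusted p = 0.0834) or without it (0.85, edgeR adjusted p = 0.732).

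Ngfr stood at 14.4 to 15.9 CPM at E12.5, 14.51 to 19.7 CPM at E13.5 and 16.3 to 17.4 CPM at E14.5. The E14.5 libraries lay just above those of E12.5, and the log2 fold change of 0.16 had an interval of -0.17 to 0.48. Trp63, Sox21 and Ngfr were the 3 genes of the 7 without overlap between E14.5 and E12.5, which held for 14.1% of all genes tested. Foxj1 stood at 0.262 to 0.756 CPM over all 9 libraries, from 5 to 14 counts, with a log2 fold change of 0.25 between E14.5 and E12.5. These levels overlapped those of the low pressure cultures.

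Other basal genes were higher at E14.5 than at E12.5 in the fit with the block. Of the 22 basal and stratified genes, 15 were tested, 5 were higher and 0 were lower, with a median log2 fold change of 0.55. Over all genes tested, 7.33% were higher and 3.63% lower in this fit. Without the block edgeR called 0 of the 15. Perp, a p63 target that encodes a protein of desmosomes, showed a log2 fold change of 2.58, and Sfn, a 14-3-3 protein gene of stratified epithelia, one of 1.79. The others were Itga6 (1.05), Pdpn (0.85) and Jag2 (0.78). In the same fit 3 of 8 mesothelial markers were higher and 0 lower by edgeR, with Msln at 3.69, and their summed level was 232 to 333 CPM at E14.5 and 170 to 206 CPM at E12.5. The part of mesothelium in the level of Pdpn was not tested in either comparison. Of the multiciliated regulators 6 were tested and 1, E2f5, was lower (-0.56), and of 13 axoneme genes 1, Ccdc40, was lower (-1.33). These single genes stand beside the 3.63% of all genes that were lower. Among the 10 neurotrophin genes tested, Ntrk2 (1.01) and Sort1 (0.50) were higher and the ligand genes Bdnf (-0.92) and Ntf3 (-1.06) were lower.

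Cultured and fresh lungs stand in tables that were scaled separately, so levels set across them are descriptions. Trp63, the keratins and Sox21 were highest on average at low pressure. Trp63 averaged 4.78 ± 0.436 CPM at high pressure, 19.2 ± 5.86 CPM at low pressure and 4.38 ± 1.31 CPM at E14.5 (SD, n = 3 each). Its high pressure libraries overlapped those of E14.5, and its low pressure libraries lay above all others. Krt15 at high pressure (14.8 ± 10.98 CPM) and at low pressure (30.03 ± 6.76 CPM) lay above every fresh library. Krt5 reached 0.108 CPM at most in fresh lungs, below 5 of the 6 cultured libraries. Ngfr ran the other way, with 6.48 to 10.3 CPM in all cultured and 14.4 to 19.7 CPM in all fresh libraries. Sox2 overlapped between all neighbouring groups in its order, from E14.5 (12.6 ± 2.40 CPM) down to high pressure (9.24 ± 3.44 CPM). Foxj1 was highest at high pressure, and its other 4 groups overlapped one another.

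Per kilobase of exon, a rough scale for comparing different genes, Sox2 was the highest of the 8 in fresh lungs, with 5.51 to 6.14 CPM per kb over the stages. Ngfr came next, at 4.38 to 4.89 CPM per kb, and Krt5 was the lowest with at most 0.0240 CPM per kb on average. In culture Krt15 had the highest mean, with 8.36 ± 6.21 CPM per kb at high and 17.0 ± 3.82 CPM per kb at low pressure (SD, n = 3). At high pressure this order rested on replicate 3, since in replicate 2 Sox2 stood at 6.11 and Krt15 at 4.48 CPM per kb. In replicate 1 Sox2 stood at 4.59 and Krt15 at 5.07 CPM per kb. The lowest mean at high pressure was that of Trp63 (0.569 ± 0.0520 CPM per kb), which rested on replicate 3 too. In replicates 1 and 2 Trp63 stood at 0.560 and 0.523, above Krt14 at 0.423 and 0.504 and Krt5 at 0 and 0.155 CPM per kb. The length counts all annotated exons of a gene, 8391 bases over 8 transcripts for Trp63, which can place it too low. At low pressure the lowest was Foxj1 (0.281 ± 0.0645 CPM per kb).

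Among 12792 genes compared over the 15 libraries, those with the pattern of levels most like that of Trp63 were Col25a1 (Pearson's r = 0.96), Nfatc2 (0.94) and Ntrk2 (0.93). Trim29, a gene of basal epithelia, was nearest to Krt15 (0.97), Six2 to Krt14 (0.96) and Samd10 to Foxj1 (0.94). Ascl2 was nearest to Sox21 (0.93), Srd5a1 to Sox2 (0.84) and Ssb to Ngfr (0.97). These values are descriptions: the 15 libraries fall into cultured and fresh lungs, and a gene that differs between these shares that difference with many others.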

How the data were processed

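RNA sequencing libraries of whole mouse lungs were deposited as tables of raw counts per gene, whole numbers made by the authors; the normalized and log2 tables were not used. The tools named in the submitters' processing notes are HTSeq, DESeq2, TopHat, Bowtie 1.1.1 and cutadapt 1.6, and the build is mm10. Annotation, filters and strand setting: not given in the sources used here.

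The tables of 6 cultured and 9 fresh libraries were fitted apart with edgeR 4.0.16 (limma 3.58.1, R 4.3.3): TMM scaling, filterByExpr by group, robust quasi-likelihood F-test, Benjamini-Hochberg adjustment across every tested gene, called under 0.05. The steps were tested on simulated data. SE is the log2 fold change divided by the square root of F and does not measure the precision of genes with few counts. CPM are raw counts scaled to the TMM library size, and log2 CPM used a prior count of 2. Alternatives were RLE scaling, DESeq2 1.42.0, no filter, a fit of all 15 libraries, a replicate block and leaving out libraries. The 9 pairs of time series libraries with the same replicate number had deviations from the group means that correlated at 0.397 to 0.838, against -0.736 to 0.625 for other pairs; what the numbers mean is not stated. In the cultured libraries same-numbered pairs correlated at -0.0124 to 0.0461, so the numbers pair nothing there. No pair of libraries in a group agreed within sampling noise (chi-square per gene of 7.18 or more).

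The members and gene lists were chosen with earlier results of these data known, and 2 genes of the basal list are not reported here and stay out of its counts. Named were all 8 genes, list members called in a comparison and the genes nearest in pattern; Krt4, Krt17, Trp73, Foxn4, Dnahc5 and genes at or near 0 were named after their values were seen. Positions and exon lengths come from GENCODE M21 on GRCm38 (mm10), older symbols and promoters from RefSeq.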

Additional observations from a re-analysis of the deposited data

How the results depend on the processing

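Trp63 and Foxj1 kept their call between high and low pressure under all 11 alternatives each. Of 340 alternative values of the 8 genes, 299 kept direction and side of the threshold, 5 lost the call, all for Krt14, 6 gained it and 30 changed sign, all of these with an adjusted p of at least 0.735 in their comparison. Krt14 at high against low pressure had an edgeR adjusted p of 0.0662 in the fit of all 15 libraries. With the replicate block, Krt15 was called there (-1.24, edgeR adjusted p = 0.0145); the numbers do not pair the cultured libraries. The block in the time series changed no call of the 8 genes other than that of Trp63.

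High against low pressure, 3905 genes were called, 1121 in the fit of all 15 libraries and 1894 to 6257 on leaving out 1 library. For E13.5 against E12.5 the replicate block gave 1 gene in place of 0. For E14.5 against E13.5 it gave 856, DESeq2 293, the fit of all 15 libraries 29 and the fit without replicate 1 of every stage 62. For E14.5 against E12.5 the block gave 1561 genes, DESeq2 491, no filter 9, all 15 libraries 161 and no replicate 1 of any stage 1119, while leaving out single libraries gave 0 to 3. Of the 8 genes, the block called 1 there and leaving out replicate 1 of every stage 2.

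Among the changes of sign, Ngfr at high against low pressure was 0.0097 with the block and -0.18 to 0.13 on leaving out 1 library, and Sox2 was -0.41 to 0.12. For E13.5 against E12.5, leaving out 1 library gave Sox2 -0.25 to 0.026, Krt14 -0.33 to 0.41 and Foxj1 -0.13 to 0.40, and leaving out replicate 1 of every stage gave Sox2 0.048 and Krt14 -0.62. For E14.5 against E13.5, Ngfr was -0.013 with RLE scaling, -0.014 with DESeq2 and -0.0017 with all 15 libraries; leaving out replicate 1 of every stage gave Krt14 0.012, Krt15 -0.0047 and Foxj1 -0.25. Leaving out 1 library there gave Krt14 -0.57 to 0.17, Krt15 -0.057 to 0.79, Ngfr -0.075 to 0.16 and Foxj1 -0.15 to 0.41. For E14.5 against E12.5 it gave Sox2 -0.092 to 0.19, Krt14 -0.45 to 0.051 and Foxj1 -0.039 to 0.57.

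The fresh libraries were sequenced to smaller totals than the cultured ones, which leaves Foxj1, Krt14 and Krt5 at few counts there.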
